A study of Mus musculus with 16 samples.

Results

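Transcripts of chemokines and of their receptors were compared between littermate controls and mice that lack Pgam1 in adipocytes (Adipo-Pgam1 KO mice), in brown adipose tissue (BAT) and gonadal white adipose tissue (gWAT). The family was taken by gene symbol as every Ccl, Cxcl, Ccr or Cxcr gene with a number, together with Cx3cl1, Cx3cr1, Xcl1, Xcr1 and Ackr1 to Ackr4. This gave 57 genes, 35 ligands and 22 receptors, of the 22911 genes with a symbol on the array. A further 5 family symbols of the RefSeq table, Ccl21b, Ccl21c, Ccl21d, Ccl27b and Cxcl11, had no matched probe. Signals of the near-identical copies of Ccl21a and Ccl27a cannot be separated from those of these 2 genes, so both are uncertain.

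The study used 16 Agilent arrays of 1 colour, each hybridized with total RNA of 1 tissue sample, so that every tissue and genotype had 4. All mice were male and of the C57BL/6NCrSlc strain. In Adipo-Pgam1 KO mice, Cre recombinase driven by the adiponectin promoter removes floxed Pgam1, which encodes the glycolytic enzyme phosphoglycerate mutase 1, in cells that express adiponectin, chiefly adipocytes. The controls carried the floxed alleles without Cre according to the methods, and are called wild-type in the labels. Mice were 16 weeks old, except replicate 4 of the KO group in both tissues, which was 14 weeks old. Each value below is the log2 of a gene's intensity over the 75th percentile of its array, taken from the brightest probe of that gene, so 0 is the 75th percentile. Differences between groups are therefore log2 changes, with 1 being a 2-fold change. Testing a gene in a comparison required a probe well above background throughout the 4 arrays of 1 group or the other. A gene was called at an adjusted p under 0.05 in limma with Benjamini-Hochberg adjustment over all genes tested.

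Pgam1 itself was lower in BAT of Adipo-Pgam1 KO mice by a log2 change of -1.74 (limma, adjusted p = 1.11e-05). In gWAT, the arrays that carry the KO label had more Pgam1 than controls, by 0.95 (limma, adjusted p = 0.0139), and directions in gWAT are therefore those of the label. Of the brown adipocyte markers, 4 were tested there and 3 called higher with the KO label, and the sum of 6 (intensity over the 75th percentile) ranged from 11.6 to 20.02 in controls and from 64.3 to 174 in those arrays. The arrays lay on 3 slides. In BAT, 3 controls lay apart on slide 1 and the remaining control shared slide 2 with all 4 KO arrays, and in gWAT the remaining control shared slide 3 with all 4 arrays labelled KO in the same way. A value within a slide therefore rests on 1 control array. The 75th percentile of an array lay between 401.3 and 451.3 intensity units in BAT controls and between 570.3 and 916.2 in the other 3 groups.

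Chemokines are small secreted proteins that guide leukocytes along gradients. They are named by the spacing of their first cysteines (CC, CXC, CX3C and XC), and act through G protein-coupled receptors on the responding cell. Atypical receptors (Ackr) bind the same ligands without G protein signalling, and transport or remove them. In adipose tissue, chemokines are made by macrophages and other leukocytes, endothelial cells, fibroblasts and adipocytes, and the axis of Ccl2 and Ccr2 is known for the entry of monocytes. Because whole tissue was profiled, more cells of a type and more RNA per cell cannot be told apart.

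Promoters of some ligands that rose in BAT are shown because several of these genes are neighbours. They are not the full set of ligands with the largest differences. RefSeq promoter sequences of GRCm38.p6, each with 250 bases before and 50 after an annotated gene start, were at hand for 43 of the 57 genes. Ccl2, Ccl4, Ccl5 and Ccl7 were among the genes without one. Ccl8 and Ccl12 lie next to each other on chromosome 11 (chr11:82114935-82115234 and chr11:82101595-82101894, both on the plus strand). The capitals mark TATAAA, read on the strand of the gene, which begins 32 bases before the start of Ccl8 and 31 bases before that of Ccl12.
Ccl8: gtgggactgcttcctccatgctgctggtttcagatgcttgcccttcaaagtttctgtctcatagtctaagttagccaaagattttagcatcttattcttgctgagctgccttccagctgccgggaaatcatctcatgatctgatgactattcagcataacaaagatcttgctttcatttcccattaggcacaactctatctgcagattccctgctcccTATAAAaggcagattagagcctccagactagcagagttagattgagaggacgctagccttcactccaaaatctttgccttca
Ccl12: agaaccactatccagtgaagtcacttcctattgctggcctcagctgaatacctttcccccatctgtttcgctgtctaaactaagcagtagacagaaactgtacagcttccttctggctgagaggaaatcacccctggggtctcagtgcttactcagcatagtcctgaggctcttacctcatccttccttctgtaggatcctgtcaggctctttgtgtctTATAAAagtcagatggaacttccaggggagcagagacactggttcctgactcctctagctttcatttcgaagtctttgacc
TATAAA was found in 25.5% of the 47 promoters of family members and in 8.32% of all 32851 promoters.

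Ccl9 and Ccl6 are also neighbours, on the minus strand of the same chromosome (chr11:83578587-83578886 and chr11:83593038-83593337). The capitals mark the longest stretch shared by both promoters with up to 3 mismatches, of 31 bases, which begins 25 bases before the annotated start of Ccl6 and 9 bases after that of Ccl9.
Ccl9: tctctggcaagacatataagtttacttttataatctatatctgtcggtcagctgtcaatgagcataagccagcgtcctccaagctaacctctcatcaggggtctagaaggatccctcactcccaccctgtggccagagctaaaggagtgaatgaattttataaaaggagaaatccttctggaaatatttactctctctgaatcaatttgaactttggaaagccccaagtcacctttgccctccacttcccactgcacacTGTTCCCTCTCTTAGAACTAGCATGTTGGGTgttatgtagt
Ccl6: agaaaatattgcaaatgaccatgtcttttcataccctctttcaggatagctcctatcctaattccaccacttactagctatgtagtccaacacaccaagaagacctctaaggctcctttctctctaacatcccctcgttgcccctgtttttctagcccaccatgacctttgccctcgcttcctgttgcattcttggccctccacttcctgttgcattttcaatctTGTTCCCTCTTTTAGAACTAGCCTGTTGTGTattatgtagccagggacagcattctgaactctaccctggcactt
The longest stretch shared without a mismatch had 13 bases.

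Cxcl10 and Cxcl1 lie on chromosome 5 (chr5:92348840-92349139 on the minus strand and chr5:90890995-90891294 on the plus strand), and their promoters are shown for the matches they hold to motifs of inducible transcription. In Cxcl10 the capitals mark, in the order of the sequence, the interferon-stimulated response element searched as GAAA, 2 bases of any kind and GAAA, the NF-kB motif at 2 places, and the AP-1 motif searched as TGANTCA. In Cxcl1 they mark the NF-kB motif, with overlapping matches on both strands.
Cxcl10: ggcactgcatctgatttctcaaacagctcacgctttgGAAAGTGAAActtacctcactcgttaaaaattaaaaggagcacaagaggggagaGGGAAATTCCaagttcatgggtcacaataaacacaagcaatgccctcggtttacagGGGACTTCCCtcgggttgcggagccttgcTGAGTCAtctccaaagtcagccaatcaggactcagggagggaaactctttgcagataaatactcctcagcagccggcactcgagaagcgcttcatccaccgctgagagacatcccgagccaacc
Cxcl1: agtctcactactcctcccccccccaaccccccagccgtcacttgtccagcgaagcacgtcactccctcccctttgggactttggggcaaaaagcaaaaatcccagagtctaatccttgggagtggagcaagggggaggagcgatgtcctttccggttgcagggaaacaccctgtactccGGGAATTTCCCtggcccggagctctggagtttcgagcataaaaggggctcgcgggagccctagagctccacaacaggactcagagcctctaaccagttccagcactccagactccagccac
Searched on both strands, the NF-kB motif was found in 21.3% of family promoters and 4.51% of all promoters, the interferon-stimulated response element in 6.38% and 3.44%, and the AP-1 motif in 14.9% and 7.81%. Of the 17 genes with a promoter sequence that were called higher in BAT of KO mice, 4 held the NF-kB motif (Ccl9, Ccr3, Cxcl1 and Cxcl10). A match describes letters and not a site in use.

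More members were well above background in BAT of KO mice than in BAT of controls. Of the 35 ligands, 17 were above background on all 4 control arrays and 24 on all 4 KO arrays, and of the 22 receptors, 6 and 13. Across all 22911 genes the corresponding shares were 57.2% and 61.4%. In gWAT the counts were 22 and 23 ligands and 10 and 12 receptors. Of the 57 members, 22 were above background on all 16 arrays. On the other hand, 12 were above background on none of them: the ligands Ccl1, Ccl22, Ccl26, Cxcl3, Cxcl15 and Cxcl17, and the receptors Ccr1, Ccr4, Cxcr1, Cxcr2, Cxcr5 and Xcr1. For these receptors and ligands only an upper limit of signal was measured.

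In BAT, the family was shifted towards higher values in Adipo-Pgam1 KO mice. Of the 37 members tested, 26 rose, 4 fell and 7 did not pass the threshold. Of all 14280 genes tested in BAT, 27.5% were called higher and 34% lower, 61.5% in either direction. The median log2 change of the tested members was 1.82, against -0.08 over all genes tested. Among the 24 ligands tested, 18 rose and 2 fell, with a median of 2.50, and among the 13 receptors 8 rose and 2 fell, with a median of 1.43. The KO and control arrays did not overlap for 18 of the members that were higher and for 4 that were lower (25.1% and 31.9% of all genes tested). Members that passed the filter only through the KO group had to be higher there, so these counts describe the tested members and not the whole family. The direction over all genes moved with the scaling: 79.6% of all calls were higher under spike-in scaling and 17.7% under Actb and Rplp0 scaling, with median shifts of 0.46 and -0.67. In the family, 30 members were called higher and 2 lower under the former, and 21 higher and 5 lower under the latter. In either direction, 63.4% and 75.8% of all genes tested were called.

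**Figure D1:**
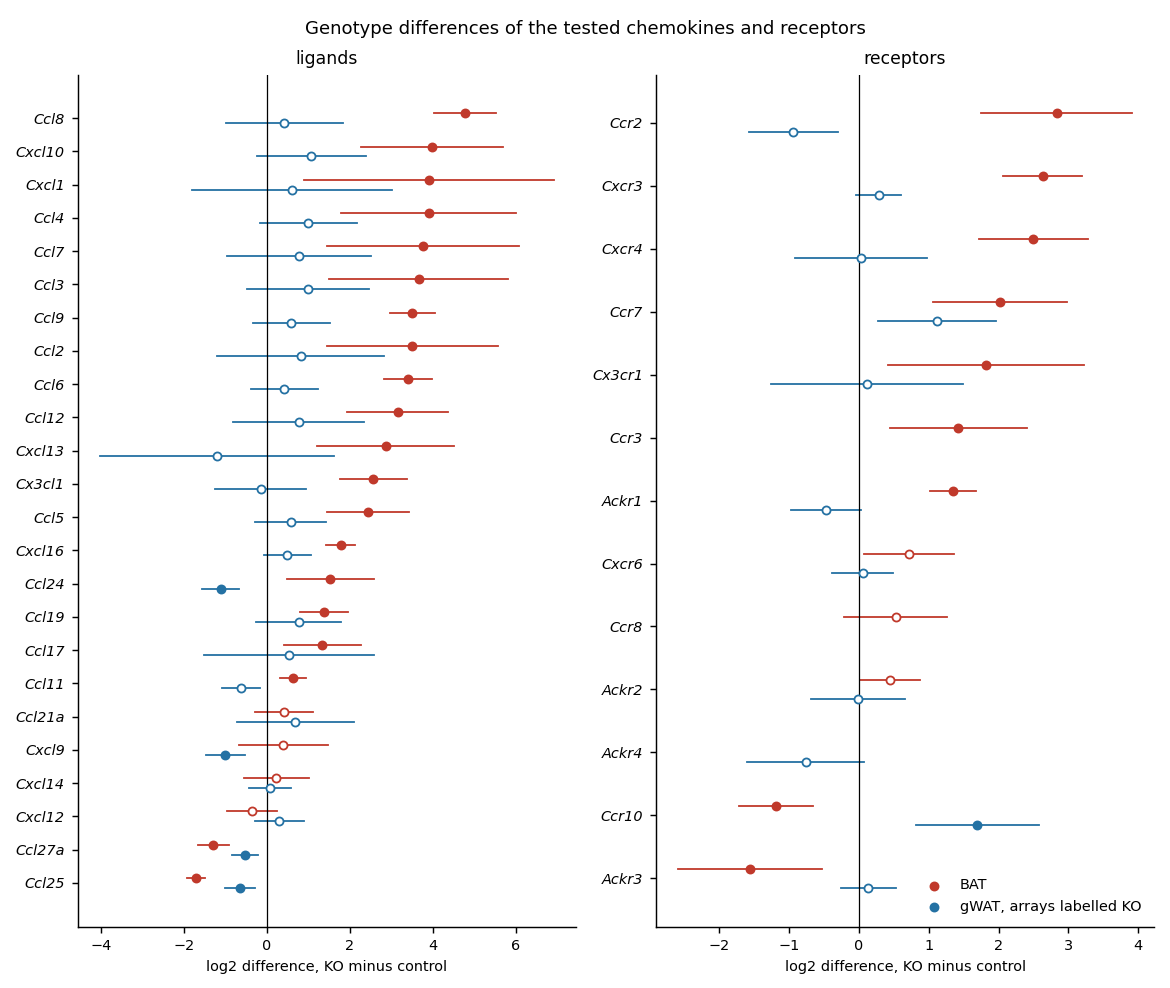
Log2 difference between Adipo-Pgam1 KO and control arrays of the tested chemokines (left) and receptors (right) reported here, in BAT (red) and gWAT (blue, arrays labelled KO), with 95% confidence intervals from limma and n = 4 arrays per group. Filled points passed an adjusted p of 0.05 and open points did not; most points filled in red lie to the right of 0, and Ccr10 is the member filled there in blue.

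The ligands of Ccr2, which draw monocytes, were higher in BAT of KO mice but varied widely between arrays of 1 group. Ccl2 (also called MCP-1) stood at 2.57, 0.08, -0.02 and -1.67 in controls and at 4.18, 4.04, 1.91 and 4.81 in KO mice. Control replicate 1 was above KO replicate 3, so the groups overlapped. The log2 change of Ccl2 was 3.5 (SE 0.90, adjusted p = 0.00899 in limma), an 11.3-fold difference. Ccl7 (MCP-3), its neighbour, showed the same pair of arrays apart from their groups. It stood at 1.82, -0.55, -1.39 and -2.95 in controls and at 3.54, 3.26, 1.01 and 4.16 in KO mice. Its change was 3.76 (SE 1.01, adjusted p = 0.0110 in limma). Ccl12 (MCP-5), a mouse ligand of Ccr2, rose by 3.15 (SE 0.54, adjusted p = 9.97e-04 in limma) with no overlap, from 0.22, 0.06, -1.38 and -1.67 in controls to 3.47, 2.02, 1.61 and 2.72 in KO mice. Within slide 2, against the single control array there, the difference was 5.41 for Ccl2, 5.94 for Ccl7 and 4.13 for Ccl12, since that array was the lowest control for all 3 genes.

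Ccl8, which in mice acts on Ccr8, showed the largest rise of any member. It stood at 0.72, 0.53, -0.42 and 0.50 in BAT controls and at 5.46, 4.72, 5.68 and 4.55 in KO mice. The groups lay far apart, and the arrays of each group lay close together. The log2 change was 4.77 (SE 0.32, adjusted p = 1.25e-05 in limma), a 27.3-fold difference, and 4.60 within slide 2. Ccl11 (eotaxin-1), a ligand of Ccr3 on eosinophils whose gene lies in the same row on chromosome 11, rose by 0.62 (SE 0.14, adjusted p = 0.00395 in limma). Its control arrays lay between 1.24 and 1.61 and its KO arrays between 1.76 and 2.22. The call of Ccl11 was lost with the slide as a block (0.47) and under Actb and Rplp0 scaling (0.03).

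Ccl6 and Ccl9, ligands of Ccr1 made by myeloid cells, rose to nearly equal values on the 4 KO arrays. Ccl6 stood at 1.14, 2.04, 2.47 and 2.10 in BAT controls and at 5.48, 5.23, 5.40 and 5.25 in KO mice. The SD was 0.56 in controls and 0.12 in KO mice, a difference in spread that was not tested. The log2 change of Ccl6 was 3.41 (SE 0.25, adjusted p = 1.69e-05 in limma). Ccl9 stood at 0.48, 1.27, 1.73 and 0.87 in controls and at 4.52, 4.63, 4.54 and 4.68 in KO mice. Its SD in KO mice, 0.077, was the smallest of any member above background on all 4 arrays of that group, where the SD ranged up to 1.98. The change of Ccl9 was 3.51 (SE 0.24, adjusted p = 1.26e-05 in limma). Neither gene had an overlap, and within slide 2 the differences were 3.25 and 3.73.

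Ccl3, Ccl4 and Ccl5, which draw macrophages and T cells, were higher as well. Ccl5 (RANTES), a product of T cells among others, stood at -0.94, -0.69, 0.09 and 0.79 in controls and at 3.12, 1.80, 1.69 and 2.37 in KO mice. All KO arrays were above all control arrays. Its change was 2.43 (SE 0.43, adjusted p = 0.00131 in limma), and 1.45 within slide 2, where it was no longer called. Ccl3 and Ccl4 (MIP-1 alpha and beta) were each detected above background on 3 control arrays and on every KO array. Ccl4 stood at -0.86, -4.79, -2.80 and -3.64 in controls and at 1.83, 0.86, -1.18 and 2.0 in KO mice, a change of 3.90 (SE 0.93, adjusted p = 0.00587 in limma). Ccl3 changed by 3.66 (SE 0.95, adjusted p = 0.00902 in limma), and by 3.21 without a call with the slide as a block. As for Ccl2, control replicate 1 lay above KO replicate 3 for both genes. Of the 11 CC ligand genes in these 2 rows on chromosome 11, 10 were tested and all 10 rose in BAT, beside 27.5% of all genes. Among these 10, Ccl3 and Ccl4 passed the filter only through the KO group, so the count describes the tested genes. The remaining gene of the 11, Ccl1, was below background on all arrays.

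**Figure D2:**
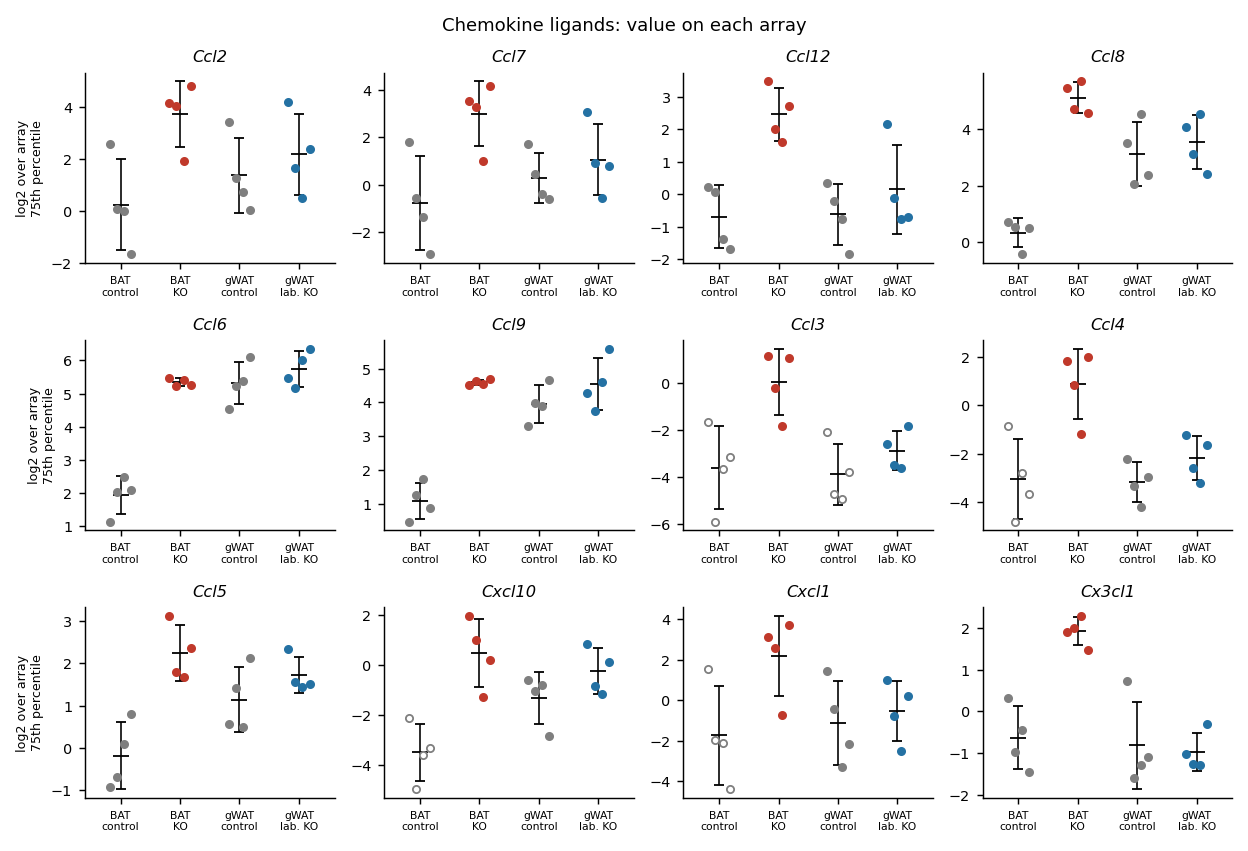
Values of 12 chemokine ligands on each array, as log2 over the 75th percentile of the array, in BAT and gWAT of controls (grey) and of mice labelled Adipo-Pgam1 KO (red and blue, "lab. KO" in gWAT); points run from replicate 1 to 4 within a group, bars give mean and SD (n = 4), and open points mark groups in which the probe was not well above background on all 4 arrays. Ccl6, Ccl8 and Ccl9 separate cleanly in BAT, whereas for Ccl2, Ccl7, Ccl3, Ccl4 and Cxcl1 a high control array overlaps a low KO array.

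**Figure D3:**
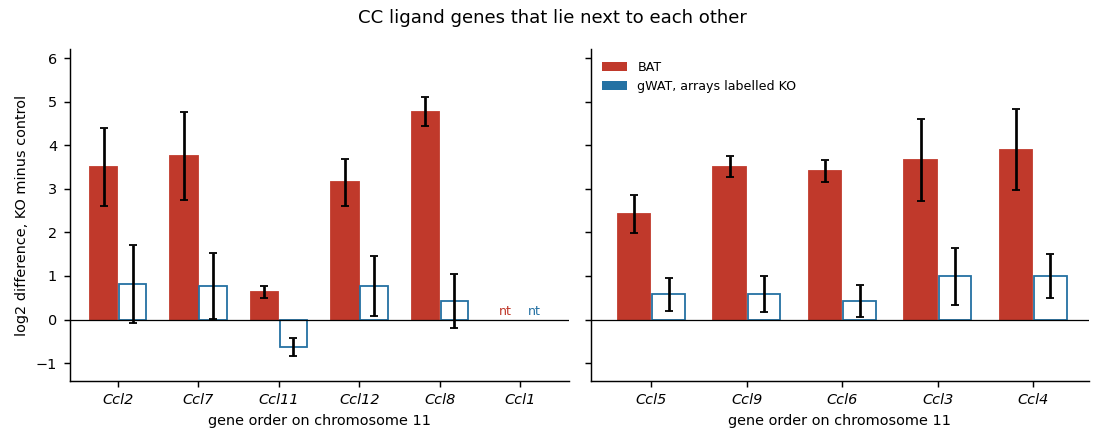
Log2 difference between KO and control arrays of the CC ligand genes in the order in which they lie on chromosome 11, in 2 separate rows of neighbours. Bars give the change and its SE from limma in BAT (red) and gWAT (blue), filled where the adjusted p was under 0.05, and nt marks a gene not tested; the 10 genes tested rise in BAT, from 0.62 for Ccl11 to 4.77 for Ccl8, and none passes the threshold in gWAT.

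Of the 7 CXC ligands tested in BAT, 4 rose (57.1%, beside 27.5% of all genes). Of these, Cxcl10, Cxcl1 and Cxcl13 were above background on 3 control arrays and passed the filter only through the KO group. The share therefore describes the tested ligands. Of the CXC ligands above background on all BAT arrays, only Cxcl16 was called. Cxcl10 (IP-10), an interferon-induced ligand of Cxcr3 on activated T cells, was above background on 3 control arrays. It stood at -2.14, -4.96, -3.59 and -3.34 in controls and at 1.96, 1.0, -1.28 and 0.20 in KO mice, with no overlap. The change was 3.98 (SE 0.75, adjusted p = 0.00178 in limma). Cxcl9, which is also induced by interferon and acts on the same receptor, ranged from 0.45 to 1.23 on control arrays and from 0.45 to 2.76 on KO arrays. Its change, 0.39, did not pass (adjusted p = 0.498 in limma, 95% interval -0.69 to 1.46). Cxcl1 (KC), a ligand of Cxcr2 that draws neutrophils, stood at 1.55, -1.97, -2.10 and -4.37 in controls and at 3.12, 2.60, -0.72 and 3.72 in KO mice. The change of Cxcl1, 3.91 (SE 1.32, adjusted p = 0.0295 in limma), was lost when any 1 of control replicates 2, 3 and 4 or KO replicates 1, 2 and 4 was left out, and was called without control replicate 1 or KO replicate 3. Cxcl5, a further ligand of Cxcr2, was not tested: it was above background on 3 KO arrays and no control array. It stood at -2.51, -1.70, -7.11 and 0.20 in KO mice, so that KO replicate 3 lay below every control array (-6.39 to -5.26) and the groups overlapped. Cxcl2 and Xcl1 were likewise above background on 3 KO arrays and no control array, but too dim for a bound.

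Cxcl13, which guides B cells through Cxcr5, rose by 2.86 (SE 0.73, adjusted p = 0.00835 in limma). Its BAT control arrays ranged from -5.41 to -1.54, 3 of them above background, and its KO arrays from -0.25 to 0.25. The call was lost with the slide as a block (1.47). Cxcl16, a ligand of Cxcr6, rose by 1.78 (SE 0.15, adjusted p = 2.98e-05 in limma), from -2.20 to -1.70 in controls to -0.52 to 0.02 in KO mice. Cx3cl1 (fractalkine), a membrane-bound ligand of endothelial cells and neurons, stood at 0.33, -0.97, -0.45 and -1.45 in controls and at 1.92, 2.01, 2.29 and 1.48 in KO mice. All KO arrays were above all controls, with a change of 2.56 (SE 0.36, adjusted p = 3.25e-04 in limma). Cxcl12, which retains cells through Cxcr4, and Cxcl14 were close to their control values, with changes of -0.36 (95% interval -0.96 to 0.25) and 0.23 (95% interval -0.56 to 1.01). A second probe of Cxcl12 differed by 0.37, the opposite direction.

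Ccl24, Ccl19 and Ccl17 rose as well. Ccl24 (eotaxin-2) changed by 1.52, Ccl19, a ligand of Ccr7, by 1.37, and Ccl17, a ligand of Ccr4, by 1.34. Ccl17 was above background on no control array and all KO arrays. Its KO mean was 1.37-fold above the mean detection floor of the control arrays, which is the dimmest signal well above background on each. The difference passed the threshold (adjusted p = 0.0187 in limma), although its measured values overlapped. Its difference was -0.015 under normexp background correction. That correction also lowered the differences of other ligands that were dim in controls, to 2.15 for Ccl3, 2.62 for Cxcl10, 1.61 for Cxcl13 and 0.47 for Ccl19, which were still called. Under Actb and Rplp0 scaling the calls of Ccl17 (0.74) and Ccl24 (0.93) were lost. The call of Ccl19, which was above background on 3 control arrays, was lost with the slide as a block (1.06). Ccl24 overlapped between the groups, and its call was lost when KO replicate 4, the younger mouse, was left out. Ccl21a, a further ligand of Ccr7, differed by 0.41 without passing (95% interval -0.28 to 1.11).

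Ccl25 and Ccl27a were the ligands that fell in BAT. Ccl25, known as a ligand of Ccr9 in thymus and gut, stood at 1.36, 1.28, 1.37 and 1.39 in controls and at -0.44, -0.19, -0.37 and -0.44 in KO mice. Neither group spread by more than 0.12 (SD), and the change was -1.71 (SE 0.09, adjusted p = 5.68e-06 in limma). The other 2 probes of Ccl25, above background on fewer arrays, differed by -2.21 and -1.18. Ccl27a, known as a ligand of Ccr10 in skin, stood at 3.22, 3.47, 3.59 and 3.25 in controls and at 1.72, 2.09, 2.12 and 2.44 in KO mice, a change of -1.29 (SE 0.16, adjusted p = 1.89e-04 in limma). Of its other probes, 1 differed by -1.34 and 1 by -0.33. Both genes kept their call in BAT under every alternative in which they were tested, the slide as a block included.

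The receptors that rose in BAT of KO mice are given next, beginning with Ccr2. Ccr2, the receptor of Ccl2, was above background on 3 control arrays and stood at -3.84, -3.29, -1.76 and -2.81 in controls and at -0.65, 0.52, 0.46 and -0.71 in KO mice. The groups did not overlap, and the change was 2.83 (SE 0.47, adjusted p = 8.76e-04 in limma). Cxcr3, the receptor of Cxcl10, stood at -3.69, -3.80, -3.13 and -2.81 in controls and at -0.56, -1.19, -0.66 and -0.50 in KO mice. It was above background on 2 control arrays and rose by 2.63 (SE 0.25, adjusted p = 4.56e-05 in limma).

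Cxcr4, the receptor of Cxcl12, was above background on 1 control array and all KO arrays, and rose by 2.50 (SE 0.34, adjusted p = 2.97e-04 in limma). Its second probe, which was above background on 3 of 16 arrays, differed by 0.52. Ccr7, which leads dendritic cells and T cells to lymph nodes, rose by 2.02 (SE 0.42, adjusted p = 0.00298 in limma), from -3.07 to -2.11 in controls to -1.81 to 0.32 in KO mice. Cx3cr1, the fractalkine receptor of monocytes and macrophages, rose by 1.82 (SE 0.61, adjusted p = 0.0292 in limma). Its groups overlapped, and the call was lost when control replicate 2 or 4 or KO replicate 2 or 3 was left out. Ccr3, the eotaxin receptor, was above background on no control array and on all KO arrays. Its KO mean was 1.77-fold above the mean detection floor of the control arrays, and the difference passed the threshold (adjusted p = 0.0180 in limma). The calls of Ccr3, Ccr7 and Cx3cr1 were lost with the slide as a block, where the differences were 1.24, 1.81 and 2.14. Under normexp background correction the calls of Ccr3 (0.12) and Cx3cr1 (0.69) were lost, and the differences of Cxcr3, Cxcr4 and Ccr7 were 1.5, 0.87 and 1.28, all still called. The difference of Cxcr4 was 1.46 within slide 2. Cxcr6 and Ccr8 differed by 0.72 (95% interval 0.07 to 1.36) and 0.53 (95% interval -0.21 to 1.27) without passing. A second probe of Cxcr6, above background on all 16 arrays, differed by 1.33.

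Ccr10, the receptor of Ccl27a, fell in BAT. It stood at 0.21, 0.46, -0.33 and -0.51 in controls and at -0.88, -1.51, -1.24 and -1.27 in KO mice, a change of -1.18 (SE 0.23, adjusted p = 0.00211 in limma). The groups did not overlap. The atypical receptors moved in different directions. Ackr1, which carries chemokines across venular endothelium, rose by 1.35 (SE 0.15, adjusted p = 8.65e-05 in limma), from between -2.33 and -1.77 to between -0.86 and -0.45. Ackr3, which removes Cxcl12, fell by 1.55 on the log2 scale (SE 0.45, adjusted p = 0.0158 in limma), from 5.98, 5.02, 4.15 and 3.97 in controls to 2.94, 3.65, 2.63 and 3.71 in KO mice. The calls of Ccr10 and Ackr3 were lost under spike-in scaling (-0.65 and -1.01) and with the slide as a block (-0.71 and -0.74). Ackr2, which removes inflammatory CC chemokines, differed by 0.45 without passing (adjusted p = 0.0666 in limma). Ackr4, which removes Ccl19, Ccl21a and Ccl25, was not tested in BAT, where it was above background on 1 of 8 arrays.

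**Figure D4:**
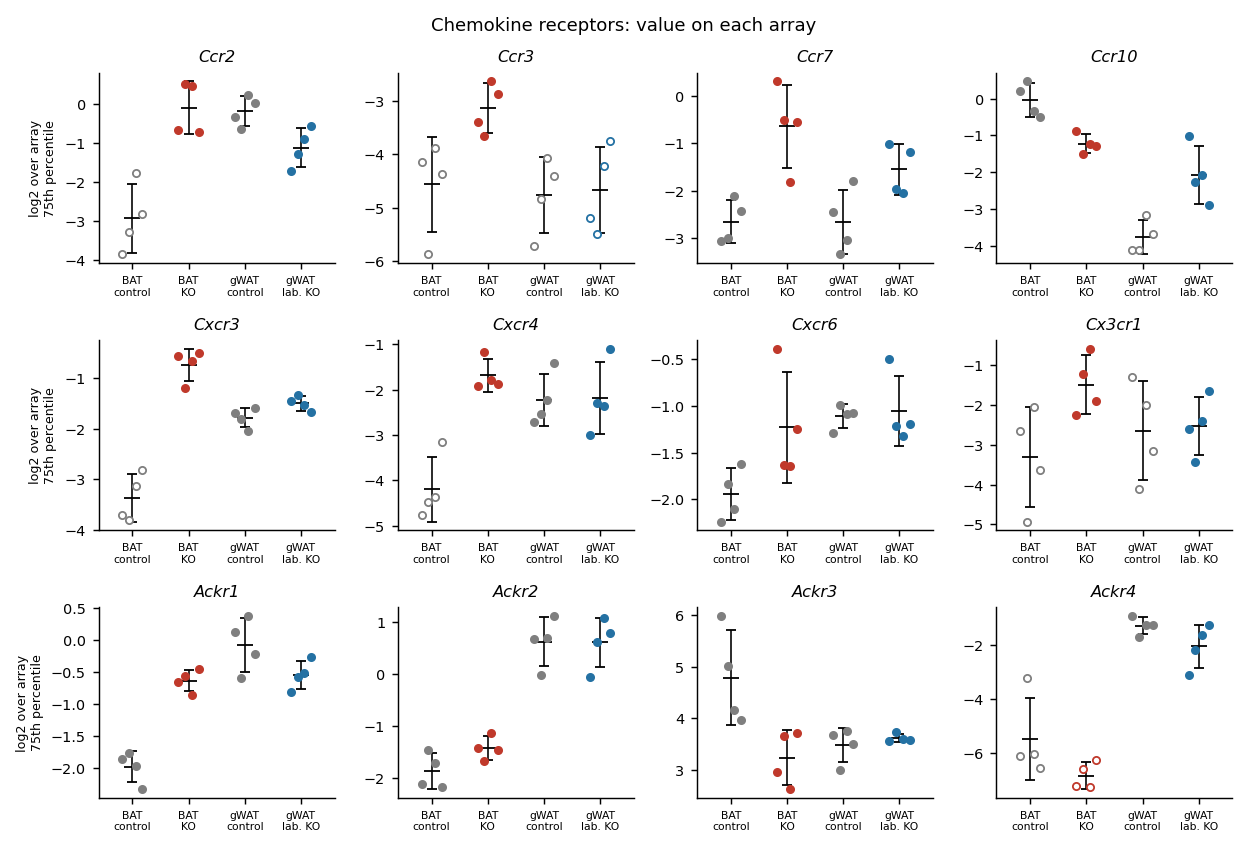
Values of 12 chemokine receptors on each array, drawn as for the ligands (log2 over the 75th percentile of the array, mean and SD, n = 4, open points where the group was not above background on all 4 arrays). Ccr2, Cxcr3, Cxcr4 and Ackr1 of BAT lie higher in KO mice without overlap, Ccr10 and Ackr3 lie lower, and Ackr2 and Ackr4 differ by tissue.

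Ligands and receptors were then set side by side. Of 29 known pairs listed, both partners were tested in BAT for 14, and both rose in 7: Ccr2 with Ccl2 and Ccl7, Ccr3 with Ccl11 and Ccl24, and 1 pair each of Ccr7 with Ccl19, Cxcr3 with Cxcl10 and Cx3cr1 with Cx3cl1. Both partners fell in 1 pair, Ccr10 with Ccl27a. Pairs share members, so these counts are not independent. Each of the 7 pairs also holds a partner that passed the filter only through the KO group. These partners were Ccr2, Ccr3, Ccl19, Cxcr3, Cxcl10 and Cx3cr1. They had to be higher there to be tested, so the count describes the tested pairs. The corresponding share over pairs of other genes was not counted. The list is not complete, and leaves out Ccl12 with Ccr2, which both rose. In other listed pairs the partners did not move alike, or 1 of them was not tested. Ccl8 rose the most, while its receptor Ccr8 differed by 0.53. Ccl3, Ccl6 and Ccl9 rose, while Ccr1, the only receptor listed for them, was below background on all arrays. The same holds for Cxcl1 with Cxcr2, Cxcl13 with Cxcr5 and Ccl17 with Ccr4. Cxcl12 differed by -0.36, while its receptors moved in opposite directions, Cxcr4 by 2.50 and Ackr3 by -1.55.

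In gWAT, few members passed the threshold. Of the 36 tested, 1 was higher and 4 were lower in the arrays labelled KO, and 31 did not pass. Of all 14149 genes tested in gWAT, 17.8% were called, 9.99% higher and 7.85% lower. The median log2 change was 0.31 over the family, 0.51 over the 24 ligands and 0.09 over the 12 receptors, against 0.05 over all genes tested. The split moved with the scaling, to 3 higher and 1 lower under spike-in scaling (median shift of all genes 0.49) and to 1 and 1 under median centring (shift 0.17). Of all genes tested, 36.1% and 9.81% were called there. The split was 1 and 6 under quantile normalization (shift -0.006) or Actb and Rplp0 scaling (shift -0.01), with 22.7% and 21.5% of all genes called. No member was called in limma with the slide as a block, where 1.3% of all genes were called and 2 members were higher and 5 lower at an unadjusted p under 0.05.

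The 4 members that were lower in the arrays labelled KO were ligands. Ccl24, the eosinophil ligand, stood at 2.77, 2.79, 2.89 and 2.75 in gWAT controls and at 1.71, 2.07, 1.81 and 1.13 in the arrays labelled KO. The control arrays lay within a narrow range, and the groups did not overlap. The change was -1.12 (SE 0.19, adjusted p = 0.00877 in limma), and -1.07 within slide 3. Cxcl9 stood at 1.42, 2.05, 1.37 and 1.69 in controls and at 0.94, 0.83, 0.33 and 0.40 in the arrays labelled KO, a change of -1.0 (SE 0.21, adjusted p = 0.0152 in limma) and -1.06 within slide 3. Ccl25 stood at -0.61, -0.17, -0.11 and -0.19 in controls and at -0.85, -0.88, -0.77 and -1.21 in the arrays labelled KO, a change of -0.66 (SE 0.16, adjusted p = 0.0259 in limma). Ccl27a stood at 1.70, 1.84, 2.05 and 1.72 and at 1.1, 1.46, 1.42 and 1.23, a change of -0.52 (SE 0.14, adjusted p = 0.0344 in limma). Its dimmest probe differed by 0.61, the opposite direction, and the mean of its probes by -0.16, without a call. Under spike-in scaling the differences of Cxcl9, Ccl25 and Ccl27a were -0.56, -0.21 and -0.08, and none of these passed.

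Ccr10 was the member that was higher in gWAT. It stood at -4.11, -4.10, -3.14 and -3.67 in controls, 3 of them above background, and at -1.01, -2.27, -2.07 and -2.89 in the arrays labelled KO. The groups did not overlap, with a change of 1.70 (SE 0.39, adjusted p = 0.0216 in limma) and of 1.61 within slide 3. The calls of the lower and higher members were not equally firm. Ccl25 lost its call when control replicate 2, 3 or 4 or labelled KO replicate 1, 2 or 3 was left out, Ccl27a when control replicate 2 or 3 or labelled KO replicate 1, 2 or 3 was, and Ccr10 when control replicate 2 or labelled KO replicate 3 was. Ccl24 and Cxcl9 kept theirs without any single array.

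Ccr2 missed the threshold in gWAT by a small margin. It stood at -0.33, -0.65, 0.23 and 0.03 in controls and at -1.73, -1.29, -0.90 and -0.55 in the arrays labelled KO, a difference of -0.93 (SE 0.28, adjusted p = 0.0509 in limma, 95% interval -1.57 to -0.30). Ccl11 differed by -0.63 (adjusted p = 0.0600 in limma) and Ccr7 by 1.11 (adjusted p = 0.0695 in limma). The ligands with the largest rises in BAT had positive but uncalled differences in gWAT. The difference was 0.42 for Ccl8 (95% interval -0.99 to 1.82), 0.82 for Ccl2 (-1.20 to 2.83), 0.42 for Ccl6 (-0.39 to 1.24) and 0.59 for Ccl9 (-0.33 to 1.51). For Ccl2, the interval includes a change as large as 2.83, so a rise of that size cannot be told from none with 4 arrays a group. The 21 members not tested in gWAT were 13 that were above background on no array of the tissue and 8 that were above it on some, namely Ccl20, Ccl28, Ccr3, Ccr6, Ccr8, Ccr9, Cxcl2 and Cxcl5.

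The family also differed between the tissues of control mice. Of 33 members tested there, 19 were higher in gWAT and 6 higher in BAT, beside 64.7% of all genes called, 29.3% higher in gWAT and 35.4% higher in BAT. The control arrays of the tissues did not overlap for 16 members that were higher in gWAT and 5 that were higher in BAT (27.2% and 33.6% of all genes, 60.8% in either direction). Ackr4, the scavenger of Ccl19 and Ccl21a, stood at -0.93, -1.69, -1.25 and -1.25 in gWAT controls and at -6.09, -3.22, -6.05 and -6.56 in BAT controls, where it was above background on 1 array. The gWAT value minus the BAT value was 4.20 (SE 0.66, adjusted p = 5.70e-04 in limma), and 1.46 under normexp background correction. Ackr2 was higher in gWAT by 2.49 and Ackr1 by 1.91. Of the ligands, Ccl6 was higher in gWAT by 3.39, Ccl24 by 3.17, Ccl9 by 2.87 and Ccl8 by 2.78, and of the receptors Ccr2 by 2.75. In contrast, members higher in BAT had negative differences (gWAT minus BAT), of -3.71 for Ccr10, -2.85 for Cxcl14, a ligand without a settled receptor, -1.62 for Ccl25 and -1.56 for Ccl27a.

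Values of the members that rose in BAT of KO mice were also set beside those of gWAT controls. For 17 of the 26, the range of the BAT KO arrays overlapped that of the gWAT control arrays, for 8 it lay above and for 1, Ccl24, below. Several of the 17 did not differ past the threshold between the control tissues. Ccr7 and Ccl2 were such members (gWAT minus BAT -0.007 and 1.13, adjusted p = 0.988 and 0.327 in limma). An overlap alone therefore does not show a move to gWAT values. Ccl6 stood between 1.14 and 2.47 in BAT of controls, between 5.23 and 5.48 in BAT of KO mice and between 4.54 and 6.11 in gWAT of controls. Ccl8 lay above, at 4.55 to 5.68 against 2.04 to 4.53, as did, among others, Ccl12, Cx3cl1, Ccl3, Ccl4, Ccr3 and Cxcr3, of which Ccl3 and Ccr3 were not above background on all gWAT control arrays. On the lower side, Ccl25 stood between -0.44 and -0.19 in BAT of KO mice and between -0.61 and -0.11 in gWAT of controls. These ranges are given as values, since the groups differ in tissue and genotype. The 26 members were chosen as higher in BAT of KO mice, and the corresponding shares over all genes were not counted.

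The difference between KO and control arrays differed between the tissues for 21 of 38 members tested by the interaction in limma, beside 48.3% of all 14820 genes tested. It was more positive in BAT for 17 members and more positive in gWAT for 4 (20.9% and 27.4% of all genes). The change of Ccl8 was 4.77 in BAT and 0.42 in gWAT, an interaction of -4.35 (SE 0.76, adjusted p = 3.76e-04 in limma). Ccr2 changed by 2.83 and by -0.93, an interaction of -3.77 (SE 0.59, adjusted p = 1.74e-04 in limma), and Ccl24 by 1.52 and -1.12, an interaction of -2.64 (SE 0.53, adjusted p = 0.00110 in limma). Ccl24 thus passed the threshold in opposite directions in the 2 tissues. The same held for Ccr10, with -1.18 in BAT and 1.70 in gWAT, an interaction of 2.88 (SE 0.49, adjusted p = 2.92e-04 in limma). Both rest on the gWAT labels: with these exchanged, the directions in the tissues would be alike. For Ccl2, Ccl7, Ccl3 and Cxcl1 the interaction did not pass (adjusted p between 0.0875 and 0.154 in limma) without a block. With the slide as a block, the interactions of Ccl8 (-3.44, adjusted p = 0.0641 in limma) and Ccr10 (2.33, adjusted p = 0.0519 in limma) no longer passed, while those of Ccr2 (-3.86) and Ccl24 (-3.19) did. The interaction calls of Ccl4, Cxcl9, Cxcl13 and Cxcl10 were lost in 18, 17, 15 and 11 of the alternatives.

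Most genes listed for signalling below the receptors were higher in BAT of KO mice. Of 31 tested, 22 rose and 3 fell (71% and 9.68%), with a median of 1.27, beside 27.5% and 34% of all genes. On all 4 control arrays 25 were above background, and on all 4 KO arrays 31, so some were tested only through the KO group. Their summed intensity over the 75th percentile ran the other way, from 274 to 402 in controls and from 234 to 281 in KO mice. Rgs1, which ends G protein signalling in leukocytes, rose by 4.11 and Vav1, an activator of Rac in leukocytes, by 3.12. In gWAT, 4 of 31 were higher and 1 lower (12.9% and 3.23%, beside 9.99% and 7.85% of all genes), with a median of 0.27. Of the 19 inducers of chemokine transcription tested in BAT, 8 rose and 2 fell (42.1% and 10.5%, beside 27.5% and 34% of all genes), with a median of 0.34. The interferon regulatory factors Irf8 and Irf5 rose by 2.73 and 2.41. Tnf and Nfkb1 differed by -0.64 and -0.05 without passing, and Il1b by 1.78 (adjusted p = 0.122 in limma). In gWAT none of 18 inducers passed the threshold in limma, and 1, Ticam1, had an unadjusted p under 0.05. Of 7 related genes outside the symbol rule, 5 rose and 1 fell in BAT (71.4% and 14.3%, beside 27.5% and 34% of all genes). Pf4 (Cxcl4) stood out at 2.80 and Dpp4, a protease that trims chemokines, at 1.74.

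Markers of several leukocyte types mostly rose in BAT, as the family did, whereas no monocyte, neutrophil or B cell marker was called higher. The part of these markers in the values of the family was not tested. For scale, 27.5% of all genes tested in BAT were called higher and 34% lower. Of 12 macrophage markers tested, 9 rose (75%) and none fell. The sum of their intensities over the 75th percentile ranged from 30.3 to 44.4 in controls and from 106 to 156 in KO mice. Fcgr1 and Mrc1 rose by 3.79 and 3.15, and Msr1 was above background on no control array. Of 8 dendritic cell markers tested, 6 rose and 2 fell (75% and 25%). Itgax, above background on 2 control arrays, differed by 3.67, and Clec9a was above background on no control array. The range of their sum was 126 to 176 in controls and 131 to 138 in KO mice. Of 11 T and NK cell markers tested, 8 rose (72.7%), Cd2 (2.42) among them. The sum over 14 ranged from 4.38 to 7.10 in controls and from 5.80 to 9.86 in KO mice. On all 4 control arrays, 7 T and NK cell and 4 dendritic cell markers were above background, against 11 and 8 on all 4 KO arrays. Markers that passed the filter only through the KO group had to be higher there, so these counts describe the tested markers. Of the eosinophil and mast cell markers, the mast cell genes Cpa3 (3.96), Mcpt4 (3.36) and Kit (1.54) rose, while the eosinophil genes Siglecf, Epx and Prg2 were above background on none or 1 of the 8 BAT arrays. The sum ranged from 1.14 to 1.57 in controls and from 5.30 to 13.7 in KO mice. Of 6 monocyte and neutrophil markers tested, Camp and Csf3r fell (-0.90 and -0.57) and none rose. The share that fell, 33.3%, was near the 34% of all genes. The sum ranged from 205 to 239 in controls and from 159 to 170 in KO mice. None of 3 B cell markers passed in limma, at an unadjusted p under 0.05 either, and 1 of 6 endothelial markers (16.7%) rose, Lyve1 (2.26). All 6 adipocyte markers fell, with a median of -1.15, led by Cidec (-2.40) and Adipoq (-2.0).

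In gWAT, 2 of 12 macrophage markers were higher (16.7%, beside 9.99% of all genes), Cd68 (1.48) and Msr1 (0.79), and the sum ranged from 75.8 to 108 in controls and from 78.0 to 219 in the arrays labelled KO. None of 9 T and NK cell markers passed in limma, with 1, Cd2, at an unadjusted p under 0.05. The mast cell markers Cpa3 and Mcpt4 differed by -1.22 and -1.18 without passing. RNA of skeletal muscle, which lies next to BAT, was uneven: the sum of its 6 markers ranged from 0.387 to 1.07 in BAT controls and from 0.848 to 78.9 in BAT of KO mice. In gWAT it ranged from 2.78 to 24.2 in controls and from 29.7 to 57.8 in the arrays labelled KO, without overlap. The part of these differences in the values of the family was not tested.

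Among the 22 members above background on all 16 arrays, values did not spread evenly over the replicates. KO replicate 3 had the lowest value of its group for 13 of the 22 in BAT and for 10 in gWAT. Control replicate 1 had the highest value for 10 in BAT and for 6 in gWAT, and the lowest for 8 and 6. In gWAT, Ccl2 was highest in replicate 1 of each group, at 3.42 in controls and 4.20 in the arrays labelled KO, and the remaining arrays stood between 0.04 and 2.38. The labels do not say whether a replicate number marks the same mouse in both tissues. The rise of Ccl2 in BAT was 2.86 at its lowest over all alternatives and leave-one-out fits, and it kept its call in each.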

How the data were processed

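Per the labels and the methods, RNA of BAT and gWAT was labelled with Cy3 and hybridized to Agilent arrays, and the authors extracted signals with Agilent Feature Extraction 10.7.1.1. The deposited scanner intensity is background-subtracted by that software. The deposited value table is an intensity ratio on the linear scale, scaled by the authors. Its log2 values differed from those computed here by a median of at most 0.005 on any array. This comparison covered the 11077 probes that lay at or above about the 75th percentile on every array, and dimmer probes were left out of it. Intensities were divided here by the 75th percentile of each array and put on the log2 scale. Of the 35886 probes with a RefSeq accession, 91.9% matched a symbol. The brightest probe of a gene was the one with the highest mean over all arrays. Groups were taken from the labels and compared with limma 3.58.1 (R 4.3.3) with BAT and gWAT fitted separately, and with all 16 arrays for the interaction. The normexp alternative (offset 50) used the median signal and background. The alternatives were scalings, background correction, filters, probe averaging, the value table, the methods' t-test, slide and replicate blocks, and leaving out each array.

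Members and lists were chosen with earlier results of these data known. By rule, array values are given for the 8 called members with the largest change that were above background on all arrays of both groups, for called members below background in 1 group as a bound, and for the partners of named members. On simulated data, the BAT test over 14280 genes recovered 72% of 2-fold and 94% of 4-fold changes, and the gWAT test over 14149 genes 53% and 95%. The labels do not state that the arrays of a group came from separate mice, so p-values measure only the spread between these arrays. The number of arrays limits the precision. Promoters were matched by symbol. Counts over the family and the lists include genes whose own values are not reported here.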

Additional observations from a re-analysis of the deposited data

Results flagged for a closer look

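The genotype difference of the members below differed between the tissues by the interaction in limma, given here as the gWAT difference minus the BAT difference. It was positive for Ccr10 (2.88), Ackr3 (1.69), Ccl25 (1.06) and Ccl27a (0.77). It was negative for the ligands Ccl8 (-4.35), Cxcl13 (-4.06), Ccl6 (-2.98), Ccl9 (-2.92), Cxcl10 (-2.91), Ccl4 (-2.90), Cx3cl1 (-2.72), Ccl24 (-2.64), Ccl5 (-1.85), Cxcl9 (-1.39), Cxcl16 (-1.29) and Ccl11 (-1.26). It was negative for the receptors Ccr2 (-3.77), Cxcr4 (-2.47), Cxcr3 (-2.34) and Ackr1 (-1.81). The value of Cxcl9 was -0.89 without BAT KO replicate 1, where it was still called, and its call was lost when any 1 of 12 other arrays was left out.

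Within groups of 4 arrays, 1 array stood apart from the others for 5 of the 127 groups in which a member was above background on all arrays, 3.94%, where chance gives about 1 in 20. These were Ccl11 in BAT of KO mice (lowest array 1.76), Cxcl14 in BAT controls (lowest array 2.17), Ccl25 in gWAT controls (lowest array -0.61), and Ccl5 (highest array 2.35) and Cxcr6 (highest array -0.49) in the gWAT arrays labelled KO.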

How the results depend on the processing

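In BAT, 17 of the 30 calls were kept under all alternatives in which the member was tested, and 27 without each array in turn. No called member changed direction except Ccl17, with -0.015 under normexp background correction. The count of members called higher was 24 to 26 over the leave-one-out fits, and 4 were lower in each. Between 55.2% and 61% of all genes tested were called in these fits, in either direction. With both groups above background on all arrays, which tests 23 members, 14 were called higher and 4 lower. In that setting 61.1% of all genes tested were called, and 40.1% of these calls were higher. The count called lower was 2 under spike-in scaling, 9 without a filter on dim probes and 2 with the slide as a block, where 18 were higher. The share of all genes called was 63.4%, 56% and 46.8% in these settings.

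In gWAT, none of the 5 calls was kept under all alternatives. The counts of members called higher and lower were 1 and 1 under median centring, 3 and 1 under spike-in scaling, 0 and 2 without a filter, and 0 and 0 with the slide as a block. The share of all genes called also moved, to 9.81%, 36.1%, 4.97% and 1.3% in these settings. Member counts were 1 and 6 under quantile normalization, normexp background correction or Actb and Rplp0 scaling, each of which gained Ccl11 and Ccr2. There, 22.7%, 20% and 21.5% of all genes were called. The count higher was 2 with the mean of all probes, and 0 under the methods' t-test or with all groups above background. The shares of all genes called were 16.1%, 11.4% and 18.6%. The methods' t-test gave 2 higher and 6 lower in gWAT, and 26 and 4 in BAT, at an unadjusted p under 0.05, and 0 and 4, and 21 and 4, after Benjamini-Hochberg adjustment. The leave-one-out fits in gWAT gave 0 to 3 higher and 2 to 5 lower, with 8.08% to 22.9% of all genes called. Without control replicate 1 it was 3 and 5, without control replicate 2 it was 0 and 2, and without labelled KO replicate 3 it was 0 and 2. It was 1 and 2 without control replicate 3 or labelled KO replicate 1 or 2, and 2 and 3 without control replicate 4. Of 31 uncalled members, 13 changed sign under at least 1 alternative.

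Between control tissues, 11 members were higher in BAT without a filter, and 12 were higher in gWAT with the slide as a block or with all groups above background. The shares of all genes called were 42.6%, 46.9% and 64.1%, in either direction. Over the leave-one-out fits, 16 to 19 members were higher in gWAT and 4 to 6 in BAT, with 58.9% to 63.1% of all genes called. The interaction was more positive in BAT for 11 members under Actb and Rplp0 scaling and for 11 with all groups above background, for 13 to 20 without 1 array, and for 10 with the slide as a block, which left 1 more positive in gWAT. In the same order, 57.8%, 50.8%, 43.9% to 51.2%, and 22% of all genes tested were called in either direction. Without a filter, where 38% of all genes were called, 8 members were more positive in gWAT, and under Actb and Rplp0 scaling 5. Why these counts moved was not tested beyond the fewer or more members tested.

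Samples of different groups share replicate numbers. The deviations of same-numbered arrays correlated between 0.01 and 0.21 in BAT and between -0.15 and 0.47 in gWAT, and between -0.16 and 0.31 across the tissues of a genotype, so the numbers were not taken to pair the arrays. With the replicate block, 27 members were called higher and 4 lower in BAT, and 2 and 3 in gWAT, where Ccl25, Ccl27a and Ccr10 were lost and Ccl4, Ccr2 and Ccr7 gained. This block left 60.3% of all genes called in BAT, 7.69% in gWAT and 46.3% by the interaction. The interaction was then more positive in BAT for 23 and in gWAT for 5, with Cxcl13 lost and Ccl2, Ccl3, Ccl7, Ccl12, Cxcl1, Cxcl12, Cx3cr1 and Cxcr6 gained. A slide with 1 control array and probes near background limit what the fits can tell apart.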
